A study of Mus musculus with 40 samples.

Results

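H19, Afp, Gpc3, Igf2, Cdkn1c and Dlk1, 6 genes that are active in the fetal liver or subject to parental imprinting, were followed across 8 dose groups of mouse liver. They were chosen by their counts across the dose groups of these same libraries, and matched by symbol to Ensembl identifiers, and are 6 of 55359 gene identifiers in the count tables and 5 of the 15373 genes that passed a filter on low counts. Liver RNA was sequenced from 40 male C57BL/6 mice, 5 per group, which were gavaged every 4 days for 28 days, from 30 to 58 days of age, with sesame oil (vehicle) or with a dioxin, 2,3,7,8-tetrachlorodibenzo-p-dioxin, abbreviated TCDD, at 30, 10, 3, 1, 0.3, 0.1 or 0.03 μg/kg in sesame oil. All groups therefore received the oil, and the labels number the mice separately, with no word on cages or litters. TCDD activates the aryl hydrocarbon receptor (AhR), and the design asked how hepatic transcripts follow the dose.

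Afp encodes alpha-fetoprotein, the main plasma protein of the fetal liver and yolk sac, which is silenced after birth while albumin takes its place. H19 is a long non-coding RNA read from the maternal chromosome, next to Igf2, a fetal growth factor read from the paternal one, and both are abundant in fetal liver and shut down in the adult. Cdkn1c (p57) is a maternally expressed inhibitor of cyclin-dependent kinases, Dlk1 a paternally expressed membrane protein of the Notch ligand family that marks hepatoblasts, and Gpc3 an X-linked heparan sulfate proteoglycan of the cell surface that restrains fetal growth. Afp, H19, Gpc3 and Dlk1 are also known to reappear in regenerating or malignant liver.

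The sequences shown here are the part of H19 with a defined product and the promoters of Afp, Dlk1 and Gpc3. These 3 genes met the call rule given below as higher at 30 μg/kg. H19 hosts microRNA 675, and the mature strands from RefSeq (GRCm38.p6, minus strand of chromosome 7) are printed with the seed, bases 2 to 8, in capitals. The strands have different seeds, and mature microRNAs were not measured in these libraries.
mmu-miR-675-5p (chr7:142577112-142577133): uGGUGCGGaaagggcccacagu
mmu-miR-675-3p (chr7:142577078-142577099): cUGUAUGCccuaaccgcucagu

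Promoters were matched by symbol for 4 of the 6 genes, and the 250 bases before the annotated start in RefSeq (GRCm38.p6) are printed from 5′ to 3′ on the strand of the gene for 3 of them. Capitals mark matches, on either strand, to the core of the AhR binding element (GCGTG, or CACGC on the other strand), to a half-site of hepatocyte nuclear factor 1 (GTTAAT, or ATTAAC) and to a TATA box (TATAAA, or TTTATA).
Afp (chr5:90490464-90490713, plus strand): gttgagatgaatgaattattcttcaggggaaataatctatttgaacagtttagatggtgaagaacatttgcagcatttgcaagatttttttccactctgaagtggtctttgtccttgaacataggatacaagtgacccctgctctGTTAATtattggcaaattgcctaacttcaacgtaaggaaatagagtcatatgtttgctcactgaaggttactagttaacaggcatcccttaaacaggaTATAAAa
Dlk1 (chr12:109452573-109452822, plus strand): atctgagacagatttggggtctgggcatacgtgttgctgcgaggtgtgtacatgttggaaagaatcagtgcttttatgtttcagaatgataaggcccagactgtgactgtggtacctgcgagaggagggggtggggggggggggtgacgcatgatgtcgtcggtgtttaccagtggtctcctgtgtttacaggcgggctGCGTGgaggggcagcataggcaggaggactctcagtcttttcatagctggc
Gpc3 (chrX:52613975-52614224, minus strand): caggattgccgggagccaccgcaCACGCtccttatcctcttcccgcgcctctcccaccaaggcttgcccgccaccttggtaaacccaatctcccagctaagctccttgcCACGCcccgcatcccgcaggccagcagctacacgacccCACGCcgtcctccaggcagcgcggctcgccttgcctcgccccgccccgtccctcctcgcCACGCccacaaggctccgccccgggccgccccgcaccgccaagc
The Afp window held 1 half-site, which begins 105 bases before the start, and 1 TATA box, which begins 7 bases before it, and no match to the AhR core. The Dlk1 window held 1 AhR core, 51 bases before the start. The Gpc3 window held 4 AhR cores, all on the other strand, 227, 141, 103 and 44 bases before the start. None of the marked matches overlapped. The windows of Igf2, which are not printed, held no match to any of these motifs. Of 32851 promoter windows of the same length, 28.2% held the AhR core, 6.43% the half-site and 12.4% the TATA box, and a match of letters is not a binding site.

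Libraries held 15496128 to 20967093 counts in genes. A count was divided by the library size after trimmed-mean (TMM) scaling and multiplied by 1000000 to give CPM, and 3 counts, the floor of detection, corresponded to 0.114 to 0.216 CPM. The libraries read as liver, with the 8 hepatocyte markers together at 108358 to 133716 CPM in vehicle. The 5 markers of pancreatic acinar cells summed to at most 0.906 CPM in vehicle and to 0.957 to 4.81 CPM at 30 μg/kg. A library at 0.1 μg/kg reached 186 CPM, against a group median of 0. The hepatic targets of the receptor, Cyp1a1 and Cyp1a2, were higher than vehicle from 0.03 μg/kg upwards. The mouse numbers in the titles form 2 runs, of 19 and 21 libraries, and each group has mice in both. Vehicle replicate 2 stood apart from all other libraries in skeletal muscle transcripts, as described with H19, and the fold changes of H19 are given with and without it.

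**Figure D1:**
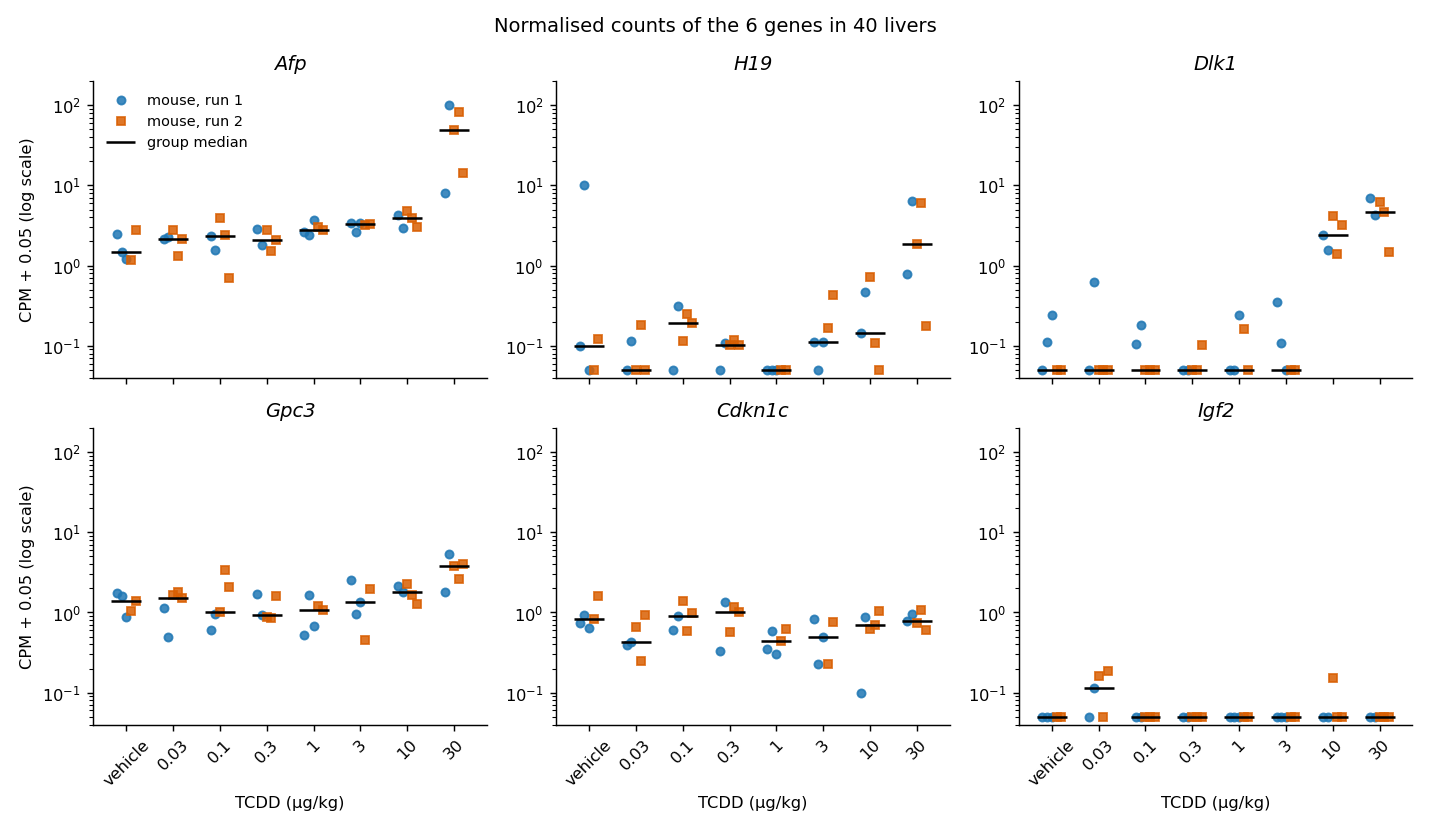
CPM plus 0.05, on a log scale, of the 6 genes in each of the 40 livers (points, shaped by run) against the TCDD dose in μg/kg, with group medians as bars. Afp stood at 7.92 to 99.7 CPM at 30 μg/kg, Dlk1 was near 0 up to 3 μg/kg and present in every mouse at 10 and 30 μg/kg, and the vehicle point of H19 at 10.1 CPM is replicate 2.

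Afp was present at a low level in every liver and was far higher at 30 μg/kg. The counts in the 5 vehicle mice were 49, 23, 18, 16 and 38. At 30 μg/kg they were 171, 2397, 1269, 2095 and 334, so that the lowest mouse at this dose lay above every vehicle mouse and the mice spanned a wide range among themselves. As CPM, Afp averaged 1.78 ± 0.751 (SD, n = 5) in vehicle and 50.7 ± 40.7 (SD, n = 5) at 30 μg/kg. The fitted log2 fold change was 4.82 (SE 0.45).

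Below 30 μg/kg the fitted values of Afp rose in small steps from dose to dose and ran in order of dose. At 10 μg/kg the counts were 87, 63, 91, 66 and 53, which as CPM (2.91 to 4.74) lay above every vehicle mouse (1.12 to 2.72). At 3 μg/kg the counts were 55, 43, 54, 54 and 51 and at 1 μg/kg 43, 39, 58, 54 and 48. The fitted log2 fold changes from 0.03 to 10 μg/kg were 0.22, 0.26, 0.28, 0.67, 0.81 and 1.06, with SEs of 0.44 to 0.46. Neighbouring doses in this order lay within their SEs of each other, apart from 10 and 30 μg/kg.

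Albumin, the adult counterpart of alpha-fetoprotein in the same gene cluster on chromosome 5, moved the other way. Per kilobase of exon, Afp averaged 0.527 ± 0.223 CPM (SD, n = 5) in vehicle and 15.0 ± 12.1 at 30 μg/kg, and Alb averaged 35446 ± 3038 and 14742 ± 4636. The level of Afp was therefore 0.00149% of that of Alb in vehicle and 0.102% at 30 μg/kg. Alb fell by 1.27 on the log2 scale (edgeR quasi-likelihood adjusted p = 2.97e-08), and all 5 mice at 30 μg/kg lay below every vehicle mouse. The other genes of the cluster, Gc, the vitamin D carrier, and Afm (afamin), fell by 1.47 (adjusted p = 5.07e-12) and 1.91 (adjusted p = 1.52e-10).

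Dlk1 was nearly absent up to 3 μg/kg and present in every mouse at the higher doses. The counts in vehicle were 0, 1, 3, 0 and 0, and among the 30 libraries from vehicle to 3 μg/kg 20 held no count and the highest held 9. In CPM, the 5 mice at 10 μg/kg had 2.35, 1.52, 4.12, 1.35 and 3.17 (23 to 79 counts), and those at 30 μg/kg had 6.90, 4.16, 6.14, 4.60 and 1.43. No mouse at these doses overlapped the vehicle mice, and the groups at 10 μg/kg (2.50 ± 1.16 CPM, SD, n = 5) and 30 μg/kg (4.65 ± 2.11 CPM, SD, n = 5) overlapped each other. The fitted log2 fold changes were 5.45 (SE 0.87) and 6.34 (SE 0.86). They rest on 4 vehicle counts: the ratio of summed counts, scaled for depth, was 49.8 (95% counting interval 19.2 to 184) at 10 μg/kg and 92.6 (36.0 to 341) at 30 μg/kg. Without vehicle replicate 3, which holds 3 of those counts, the fitted values were 6.80 and 7.69.

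Gpc3 was measured in all livers at a low level. The counts in vehicle were 34, 25, 13, 14 and 19 and at 30 μg/kg 38, 127, 97, 64 and 93. As CPM every mouse at 30 μg/kg (1.76 to 5.28) exceeded the vehicle mice (0.841 to 1.69), although the lowest nearly touched the vehicle range. The log2 fold change was 1.41 (SE 0.41), from 1.29 ± 0.365 CPM (SD, n = 5) in vehicle to 3.44 ± 1.35 CPM. At 10 μg/kg the counts were 43, 38, 43, 27 and 22 and the log2 fold change 0.46 (SE 0.42), and at the lower doses it ranged from -0.40 to 0.26 with every group overlapping vehicle.

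H19 had a single high vehicle library. The counts in vehicle were 1, 163, 0, 0 and 1, so that replicate 2 held 98.8% of them, at 10.1 CPM. In the 25 libraries from 0.03 to 3 μg/kg the counts totalled 27, with no library above 6. At 10 μg/kg they were 2, 9, 13, 1 and 0, and at 30 μg/kg 16, 151, 47, 152 and 3. Replicate 5 at 30 μg/kg was at the floor of detection, replicates 2 and 4 were high at 6.28 and 6.03 CPM, and no dosed mouse reached vehicle replicate 2.

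With all 5 vehicle mice the fitted log2 fold change of H19 was 0.54 (SE 0.95) at 30 μg/kg and -2.98 (SE 1.12) at 10 μg/kg, and it ran from -8.20 to -3.91 at the lower doses. Every mouse at 1 μg/kg was at 0 counts, so that the fitted value there depends on the prior count and is no bound. Without vehicle replicate 2, a choice made after the data were examined, the log2 fold change was 6.30 (SE 1.15) at 30 μg/kg and 2.77 (SE 1.30) at 10 μg/kg, and from 0.03 to 3 μg/kg it was 0.21, 1.85, 0.46, -2.45 and 1.77. The remaining 4 vehicle mice held 2 counts, and the ratio of summed counts to them was 97.5 (95% counting interval 26.8 to 808) at 30 μg/kg and 8.25 (2.06 to 71.9) at 10 μg/kg. These intervals cover counting error only.

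**Figure D2:**
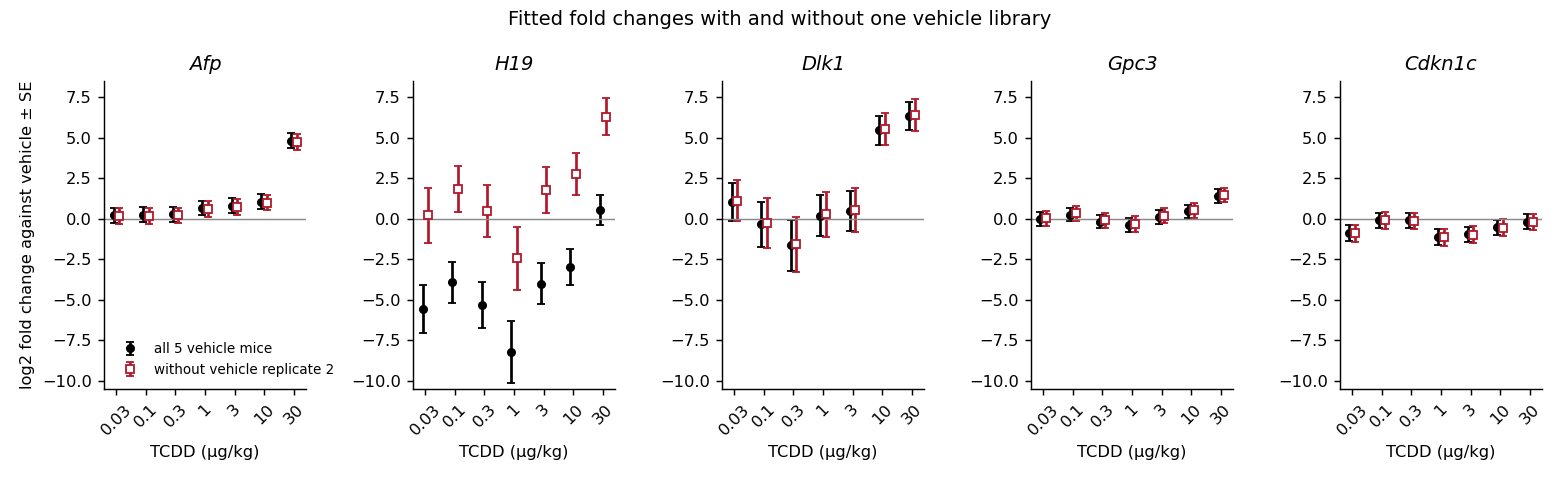
Fitted log2 fold change against vehicle, with SE, at each dose in μg/kg for the 5 genes that passed the filter, with all 5 vehicle mice (black circles) and without vehicle replicate 2 (red squares). H19 changes from 0.54 to 6.30 at 30 μg/kg when that library is left out, while Afp, Dlk1, Gpc3 and Cdkn1c move less.

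The same vehicle library held transcripts of skeletal muscle. The summed level of 12 skeletal muscle genes, listed after the data were examined, was 644 CPM in vehicle replicate 2 and 1.04 to 1.86 CPM in the other 4 vehicle mice. All 12 genes had counts there, including Acta1 (skeletal muscle actin) at 2353 counts, Myh1 (fast myosin) at 1453, Tnnt3 (fast troponin T) at 1057 and Ckm (muscle creatine kinase) at 559. H19 is known to stay on in adult skeletal muscle, and the part of these transcripts in its vehicle value was not tested.

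At 30 μg/kg the summed level of the 12 genes was 21.2 to 77.7 CPM, and this was almost all Acta1 (20.0 to 75.0 CPM). Ckm, Myh4 (fast myosin) and Mb (myoglobin) were at 0 counts in all 5 of these libraries. Without Acta1 the other 11 genes summed to 1.16 to 2.75 CPM at 30 μg/kg and to 497 CPM in vehicle replicate 2. In the 4 libraries at 30 μg/kg with 16 to 152 counts of H19, replicates 1 to 4, these 11 genes summed to 1.16, 2.75, 2.52 and 1.39 CPM. Replicates 2 and 3 lay above the other 4 vehicle mice (0.971 to 1.86 CPM), as did replicate 5 at 2.45 CPM, which had 3 counts of H19. Replicate 2 was also the highest for H19 in CPM. The part of Acta1 and of the other muscle genes in these H19 values was not tested.

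**Figure D3:**
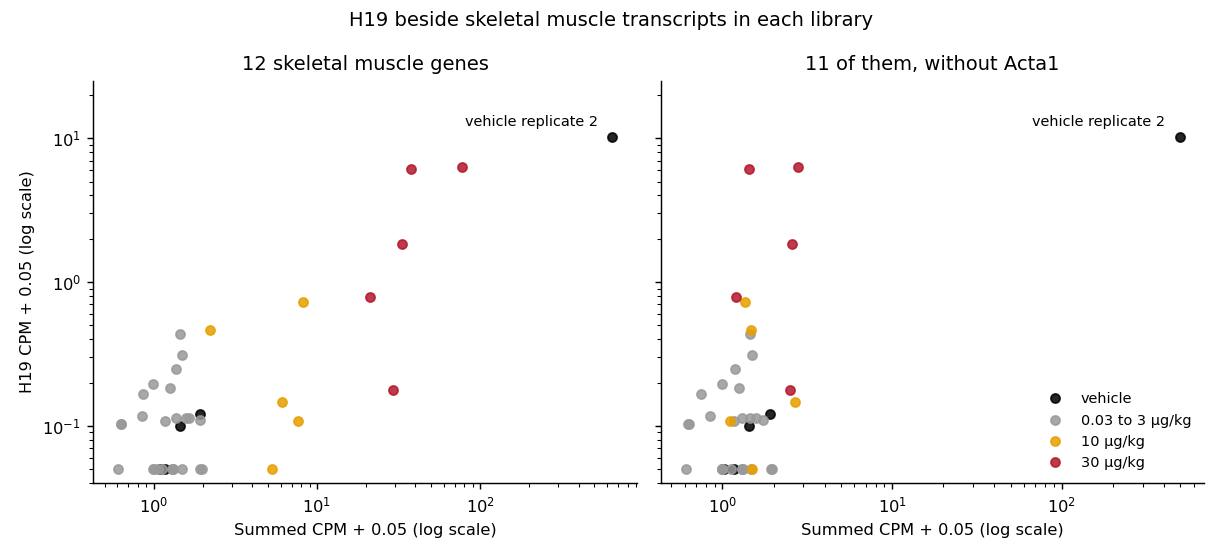
H19 against the summed level of skeletal muscle genes in each of the 40 libraries, both as CPM plus 0.05 on log scales, with all 12 muscle genes (left) and without Acta1 (right). Vehicle replicate 2 is far to the right in both panels, while the 30 μg/kg libraries, at 21.2 to 77.7 CPM on the left, fall back to 1.16 to 2.75 CPM once Acta1 is left out.

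The level of Cdkn1c followed no order of dose. The counts in vehicle were 14, 14, 9, 11 and 22 and at 30 μg/kg 16, 22, 18, 26 and 13, and the groups overlapped, at 0.899 ± 0.393 and 0.784 ± 0.191 CPM (SD, n = 5 each). At 30 μg/kg the fit gave a log2 fold change of -0.19 (SE 0.46). The lowest fitted value was -1.12 (SE 0.49) at 1 μg/kg, where the counts were 5, 9, 4, 7 and 10 and every mouse lay below every vehicle mouse in CPM, as did 3.13% of all genes tested at that dose. With both strand columns summed, the counts at 1 μg/kg were 13, 30, 16, 22 and 29. Those in vehicle were 26, 50, 21, 22 and 39, so that the groups overlapped in these counts. Summed over both strand settings the counts of Cdkn1c were 140% higher than the unstranded count, and 30.7% of its exon bases are shared with the antisense gene Gm44732 (0 counts). Without strand, reads of the 2 genes cannot be told apart there.

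Igf2 could not be assessed. It had 7 counts in total, 1, 2 and 2 in mice at 0.03 μg/kg and 2 in a mouse at 10 μg/kg, and 0 in the other 36 libraries. In the GENCODE M21 annotation 62.8% of its exon bases are shared with a read-through gene on the same strand, Gm49394, which itself had 0 counts. Under that overlap reads in shared bases are counted for neither gene, while reads in the other exon bases still count. The counts may therefore understate Igf2, which was not tested, and no fold change is given.

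The call rule was an adjusted p under 0.05 with a fold of at least 1.5. At 30 μg/kg it was met by Afp, Dlk1 and Gpc3, 3 of the 5 genes that passed the filter, all higher, where it was met by 42.1% of all genes tested and in the upward direction by 23.2%. The rule was met at 10 μg/kg by Dlk1 as higher (13.6% of all genes) and by H19 as lower (8.13%), of 21.8% in either direction. H19 also met it as lower at 1 μg/kg (0.637% of all genes, 2.78% in either direction) and at 3 μg/kg (2.22% and 6.75%). These lower calls of H19 rest on vehicle replicate 2, which held 163 of 165 vehicle counts. Vehicle replicates 1, 3, 4 and 5 had 1, 0, 0 and 1 counts, and without replicate 2 the sign at 3 μg/kg turned. Without vehicle replicate 2, H19 met the call rule as higher at 30 μg/kg and not at 10 μg/kg, where in either direction 41.5% and 21.2% of all genes met it. The dosed and vehicle mice did not overlap, with the dosed mice higher, for 12.9% of all genes at 10 μg/kg, which included Afp and Dlk1, and for 19.7% at 30 μg/kg, which included Afp, Dlk1 and Gpc3. Dlk1, with at most 9 counts in any library up to 3 μg/kg, passed the filter through the groups at 10 and 30 μg/kg. H19 passed it largely through libraries at 30 μg/kg. Since the genes were chosen with these values known, and the filter depends on the same values, the counts are a description.

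Within the 30 μg/kg group the genes did not rank the mice in the same order. Afp ran from replicate 2 (99.7 CPM) through 4, 3 and 5 to 1 (7.92 CPM). H19 was highest in replicates 2 and 4 as well, and lowest in 5. Gpc3 was highest in replicate 2 and lowest in 1. Dlk1 was highest in replicate 1 (6.90 CPM), the lowest for Afp and Gpc3, and lowest in replicate 5 (1.43 CPM).

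Markers of several cell types moved with the dose beside these genes. The 7 cholangiocyte markers summed to 37.8 to 48.6 CPM in vehicle and to 68.0, 344, 172, 195 and 92.8 CPM in replicates 1 to 5 at 30 μg/kg, the same order of mice as Afp. Most of this sum was Spp1 (osteopontin), at 51.1, 237, 148, 172 and 76.5 CPM in these mice. Without it, a sum added after the data were seen, the other 6 markers came to 14.9 to 19.5 CPM in vehicle and to 17.0, 107, 23.5, 23.0 and 16.3 CPM at 30 μg/kg, where replicates 1 and 5 lay within the vehicle range and the order differed from that of Afp. Of the 5 markers that passed the filter, Krt7, Krt19, Epcam and Spp1 were called higher and Sox9 lower, and the call of Krt19 was lost without replicate 2. The 10 stellate cell and fibroblast markers summed to 201 to 342 CPM in vehicle and 747 to 1722 CPM at 30 μg/kg, the 6 macrophage markers to 130 to 182 and 452 to 1124 CPM, and the 6 proliferation markers to 4.23 to 5.91 and 54.3 to 78.9 CPM. At 10 μg/kg, where Dlk1 was already present, proliferation markers stood at 27.7 to 54.6 CPM and cholangiocyte markers at 35.9 to 76.9 CPM. The 8 hepatocyte markers fell to 31861 to 66864 CPM at 30 μg/kg. Most of this sum was Alb, at a mean of 34527 CPM (83015 CPM in vehicle). At 30 μg/kg 7 of the 8 were called lower (87.5%, against 18.9% of all genes), and Hnf4a was not called (-0.36). In vehicle and at that dose, the 6 endothelial markers summed to 139 to 188 and 263 to 347 CPM. The 6 mesothelial markers summed to 2.87 to 12.8 and 7.73 to 20.6 CPM. The 8 erythroid markers summed to 232 to 385 and 86.1 to 442 CPM, with medians of 374 and 144. The part of all these cell types in the values of Afp, H19, Dlk1 and Gpc3 was not tested, and in whole tissue a change in the number of cells and in the RNA per cell cannot be told apart.

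Run 2 was compared with run 1 at equal dose, a contrast that played no part in the choice of the genes, and none of the 5 passed the test. The fit gave log2 differences of 0.02 for Afp (SE 0.22, edgeR adjusted p = 0.977), 0.17 for Gpc3 (SE 0.22, adjusted p = 0.743), -0.68 for Dlk1 (SE 0.46, adjusted p = 0.468), 0.34 for Cdkn1c (SE 0.24, adjusted p = 0.486) and -0.58 for H19 (SE 0.80, adjusted p = 0.762), with 0.124% of all genes meeting the call rule. Within run 1 and run 2 alone, Afp at 30 μg/kg had log2 fold changes of 4.97 and 4.63 and Gpc3 of 1.35 and 1.5. Dlk1 had 5.99 and 9.14, the latter against vehicle mice with 0 counts, which is no bound. H19 had 0.04 in run 1, which holds vehicle replicate 2, and 5.94 in run 2.

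The genes whose log2 CPM most resembled each member over the 40 libraries are given as a description, since the libraries share doses and cell makeup. Afp ran with Acot2, an acyl-CoA thioesterase (r = 0.93), Slc7a11, the cystine transporter (r = 0.93), and Areg, an EGF receptor ligand (r = 0.92). After removing the mean of each dose, the closest to Afp were Gtdc1 (r = 0.77), Slc7a11 (r = 0.75) and Mat2a (r = 0.74). Dlk1 ran with Ap1m2, an epithelial clathrin adaptor (r = 0.91), Ecel1 (r = 0.91) and Ccdc120 (r = 0.91), and within doses with Prr11 (r = 0.63), Cryzl1 (r = 0.55) and Trub1 (r = 0.53). Gpc3 ran with extracellular matrix genes, Ltbp3 (r = 0.83) and Adamts2 (r = 0.77), and with Tmem119 (r = 0.76), and within doses with Sparc (r = 0.74), Ltbp3 (r = 0.74) and Adamts2 (r = 0.69).

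H19 ran with Slc25a4, the muscle form of the mitochondrial ADP/ATP carrier (r = 0.81), Cd24a (r = 0.80) and Acta1 (r = 0.80), and within doses with Slc25a4 (r = 0.73), Acta1 (r = 0.71) and Tpm1 (r = 0.70). Without vehicle replicate 2 the closest were Spp1 (osteopontin, r = 0.86), Mmp7 (r = 0.86) and Capza2 (r = 0.85), and H19 and Afp correlated at r = 0.82 over 39 libraries against 0.63 over 40, and at 0.30 over 40 after removing the mean of each dose. Over the same 39 libraries the gene closest to Dlk1 was Acta1 (r = 0.93). For Cdkn1c the highest r over all libraries was 0.53 (1700025G04Rik, then Nudt19 at 0.49 and Trim62 at 0.48), and within doses Ptger3 (r = 0.59), Trim62 (r = 0.56) and Gm11827 (r = 0.54) came closest.

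Among other imprinted genes, Airn and Igf2r were higher at 30 μg/kg, and the share of genes called higher was near that of all genes. Of 44 listed genes 29 passed the filter, and 8 rose (27.6%, against 23.2% of all genes), 1 fell (3.45%, against 18.9%) and 20 did not meet the call rule, with a median log2 fold change of 0.28 against 0.03 over all genes. This list and those in the paragraphs below were chosen with earlier results of these data known, so their shares are a description. In 8 of the 9 called genes all 5 mice lay on the called side of the vehicle mean, the exception being Peg3. With scaling by library size alone, which moves the median of all genes to 0.52, the count was 15, all higher, and the fall of Slc38a4 was not called. The largest rises on the list were in the Igf2r domain: Airn, the paternal antisense RNA that silences it, rose by 3.60 (edgeR adjusted p = 2.11e-06), from 5 to 17 counts in vehicle to 115 to 287, and Slc22a3, an organic cation transporter, by 2.91 (adjusted p = 2.33e-11). The sign of Slc22a3 turned, to -2.12, when the columns for each strand were summed, so that its change is uncertain. Igf2r, the receptor that clears Igf2, rose by 1.38 (adjusted p = 8.15e-12), and each of the 5 dosed mice exceeded all vehicle mice. Airn overlaps Igf2r on the other strand, and reads where they overlap cannot be told apart.

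Impact, a regulator of the translational stress kinase Gcn2, rose by 1.83 (adjusted p = 6.33e-08), Mest by 1.45 (adjusted p = 6.04e-05) and Snrpn by 0.59 (adjusted p = 0.0319). Snrpn kept its call in 8 of 19 alternative settings and lost it without any of 7 libraries (replicates 1, 2 or 3 of vehicle, replicates 1, 2, 4 or 5 at 30 μg/kg; highest adjusted p = 0.0916). Grb10, an adaptor that restrains insulin and IGF receptors (1.30), and the zinc finger gene Peg3 (1.48) were also called higher, and both are named here after their values were seen. Peg3 counts at 30 μg/kg were 104, 2742, 1386, 195 and 76 against 153 to 348 in vehicle, so that in CPM 2 mice were above every vehicle mouse and 3 below. Without replicate 2 at 30 μg/kg, Peg3 did not meet the call rule (adjusted p = 0.535). Slc38a4, an amino acid transporter, fell by 0.94 (adjusted p = 1.14e-09).

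The imprinted RNAs that share the Dlk1 domain on chromosome 12 did not follow Dlk1. Meg3, a maternally expressed long non-coding RNA, fell by 1.88 at 3 μg/kg (adjusted p = 0.00817) and by 1.18 at 10 μg/kg (adjusted p = 0.0459), from 32 to 110 counts in vehicle to 7 to 32 and 20 to 57. The call at 10 μg/kg was kept in 9 of 20 alternative settings, and was lost without replicates 1, 2 or 5 of vehicle or 1, 2, 4 or 5 of the dose (highest adjusted p = 0.12). Rian, its downstream neighbour, fell by 1.98 (adjusted p = 8.84e-04) and 2.09 (adjusted p = 8.32e-05) at these doses. At 30 μg/kg neither met the call rule, with values of -0.35 (SE 0.44) and -0.06 (SE 0.36), and whether their doses differ was not tested. The remaining genes of the domain, Rtl1, Mirg and Dio3, did not pass the filter. Peg10, a gene of retroviral origin, and Inpp5f, a lipid phosphatase, fell by 1.70 (adjusted p = 0.0251) and 0.63 (adjusted p = 0.00139) at 10 μg/kg. The falls of Meg3, Peg10 and Inpp5f were not called with library size alone. At the same dose Airn rose by 2.78 (adjusted p = 2.79e-04), Igf2r by 0.76 (adjusted p = 7.82e-06), Mest by 1.17 (adjusted p = 0.00193) and Snrpn by 0.70 (adjusted p = 0.0215). Slc22a3 rose by 1.58 (adjusted p = 1.64e-05), with a sign that turned when the strand columns were summed. Leaving out 1 library ended the calls at this dose of Peg10 (vehicle replicate 3 or dosed replicates 1, 2 or 5; highest adjusted p = 0.0747), Snrpn (vehicle replicates 2 or 3 or dosed replicates 4 or 5; highest adjusted p = 0.0892) and Inpp5f (dosed replicate 5, where its fold was under 1.5).

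Other genes of the fetal or progenitor liver were mostly higher at 30 μg/kg. Of 32 listed genes 22 passed the filter, and 17 rose (77.3%, against 23.2% of all genes), 3 fell (13.6%, against 18.9%) and 2 did not meet the call rule, with a median log2 fold change of 2.28 against 0.03 over all genes. The list was chosen with earlier results of these data known, so the shares are a description. A gene low in vehicle could also pass the filter only through dosed groups where it was higher. In 17 of the 20 called genes all 5 mice lay on the called side of the vehicle mean, the exceptions being Golm1, Hmga1 and Krt19. With library size alone 19 were higher and 1 lower, and all genes were also called higher far more often than lower. Prom1 (CD133, a progenitor surface protein) rose by 5.56 (adjusted p = 2.27e-13), from 7 to 32 counts in vehicle to 700 to 2133. Tspan8, a tetraspanin, rose by 3.37 (adjusted p = 1.08e-06) and Pkm, the pyruvate kinase gene whose M2 form is used by fetal liver, by 3.22 (adjusted p = 1.94e-15). Hmga2, a chromatin protein of fetal tissues, rose by 4.28 (adjusted p = 1.24e-04), from at most 5 to between 14 and 61 counts. Epcam, Spp1, Krt19 and Sox9 of this list, named after their values were seen, are also among the cholangiocyte markers.

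The oncofetal genes Lin28b, Igf2bp1, Igf2bp3 and Sall4 did not pass the filter. Aldoc, an aldolase, fell by 2.30 (adjusted p = 1.2e-07), Sox9, a biliary transcription factor, by 0.95 (adjusted p = 0.00392) and Mycn by 1.5 (adjusted p = 0.0214). The falls of Sox9 and Mycn were not called with library size alone, and that of Mycn was lost without vehicle replicate 1 or 3 (highest adjusted p = 0.0619). Some genes were called at lower doses. Pkm and Lpl, lipoprotein lipase, rose from 0.3 μg/kg, where 0.468% of all genes met the rule (0.86, adjusted p = 0.0291, and 1.05, adjusted p = 0.0289), and Mdk, the growth factor midkine, from 3 μg/kg (1.70, adjusted p = 0.0469). Of the 22 genes, 8 rose at 10 μg/kg (36.4%, against 13.6% of all genes) and 1, Mycn, fell (4.55%, against 8.13%). The genes that rose included Prom1 (2.36, adjusted p = 3.19e-05), Hmga2 (2.78, adjusted p = 0.0235), Scd2, a desaturase of fetal liver (1.30, adjusted p = 2.15e-04), Hk2, a hexokinase (1.20, adjusted p = 0.0333) and Krt8, an epithelial keratin (0.64, adjusted p = 5.16e-04). The calls of Hmga2, Mdk and Hk2 at 10 μg/kg each held in 11 of 18 or 19 alternative settings, and were lost without vehicle replicates 2, 3, 4 or 5 or dosed replicate 4 (Hmga2, highest adjusted p = 0.079), vehicle replicates 2, 3 or 4 or dosed replicate 2 (Mdk, 0.116), and vehicle replicates 3, 4 or 5 or dosed replicates 1, 2 or 3 (Hk2, 0.105). Krt19 was not called at 30 μg/kg once replicate 2 of that dose was left out (adjusted p = 0.163).

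**Figure D4:**
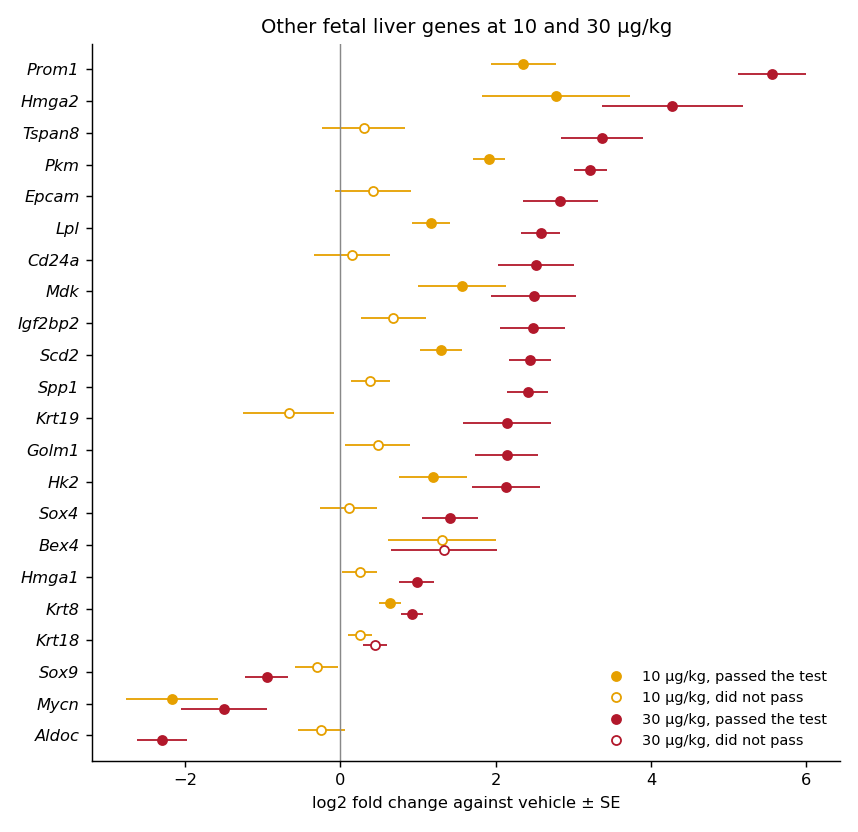
Log2 fold change against vehicle, with SE, of the 22 other fetal liver genes that passed the filter at 10 μg/kg (yellow) and 30 μg/kg (red), filled where the gene met the call rule. Prom1 leads at 5.56 at 30 μg/kg, 17 genes are filled to the right of 0 and Sox9, Mycn and Aldoc to its left.

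The genes around Igf2 moved in both directions. Of 15 ligands, receptors, binding proteins and substrates 13 passed the filter, and at 30 μg/kg 4 rose (30.8%, against 23.2% of all genes), 6 fell (46.2%, against 18.9%) and 3 did not meet the call rule, with a median of -0.55 against 0.03 over all genes (4 higher and 4 lower with library size alone). Under library size alone, all genes were called higher far more often than lower. In all 10 genes called under TMM scaling the 5 mice lay on the called side of the vehicle mean. Igf1, the growth factor that adult liver secretes, fell by 1.60 (adjusted p = 1.17e-06), and Igfals, which holds it in plasma complexes, by 2.25 (adjusted p = 1.84e-05), a call that was lost with DESeq2 and in run 1 alone. Igfbp2, a binding protein of fetal and adult liver, fell by 3.23 (adjusted p = 3.09e-11), and it was already lower at 1 μg/kg (-1.12, adjusted p = 0.0174), 3 μg/kg (-1.21, adjusted p = 0.00436) and 10 μg/kg (-1.20, adjusted p = 0.00125). Igfbp1, a stress-responsive binding protein, rose by 3.10 (adjusted p = 0.00166), from 207 to 2817 counts in vehicle to 3118 to 40748, and Igfbp7 by 1.52 (adjusted p = 9.21e-13). As CPM, Igfbp1 in replicates 1 and 5 at 30 μg/kg (172 and 131) lay within the vehicle range (13.4 to 202). The call of Igfbp1 was lost in run 2 alone. Igf1r, the receptor that carries the growth signal of Igf1 and Igf2, rose by 1.11 (adjusted p = 0.00238). Among the binding proteins at 10 μg/kg, Igfbp3 (0.81, adjusted p = 0.00276) and Igfbp7 (0.87, adjusted p = 1.03e-06) were higher.

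Factors known to act on Afp, H19 or imprints were more often lower than higher at 30 μg/kg under TMM scaling. With library size alone they were as often higher as lower (6 and 6), while all genes were called higher far more often than lower. Of 26 listed genes 25 passed the filter, and under TMM scaling 4 rose (16% against 23.2% of all genes), 11 fell (44% against 18.9%) and 10 did not meet the call rule, with a median of -0.48 against 0.03 over all genes. In 14 of the 15 called genes all 5 mice lay on the called side of the vehicle mean, the exception being Zfp57. Foxa1 fell by 1.69 (adjusted p = 3.31e-09) and Cebpa by 1.65 (adjusted p = 2.08e-11), both factors of the hepatocyte programme, and both were already lower at 10 μg/kg (-0.92, adjusted p = 2.89e-04, and -0.91, adjusted p = 1.29e-05). Nfib fell by 1.39 (adjusted p = 6.32e-05). Uhrf1, which brings the maintenance DNA methyltransferase to replicated DNA, rose by 3.07 (adjusted p = 2.83e-07) and was higher at 10 μg/kg (2.02, adjusted p = 4.65e-04), while proliferation markers were higher in the same libraries. Zfp57, a keeper of imprints, rose by 0.96 (adjusted p = 0.022) and Trp53 by 0.69 (adjusted p = 1.62e-07). The call of Zfp57 was lost without vehicle replicates 1 or 5 or replicate 3 at 30 μg/kg (highest adjusted p = 0.113). The postnatal repressors of Afp, named here after their values were seen, were Zhx2, which fell by 0.76 (adjusted p = 1.08e-05; not called with library size alone), and Zbtb20, with a value of -0.70 (adjusted p = 0.0666).

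The relatives of Gpc3, Cdkn1c and Dlk1 showed mixed directions. Among glypicans Gpc4 fell by 1.55 (adjusted p = 6.47e-11), Gpc6 rose by 1.28 (adjusted p = 0.0095), Gpc1 did not meet the call rule (0.33, adjusted p = 0.436), and Gpc2 and Gpc5 did not pass the filter. Of the other inhibitors of cyclin-dependent kinases in the family of Cdkn1c, Cdkn1a (p21) rose by 2.46 (adjusted p = 4.11e-05) at 10 μg/kg and by 3.04 (adjusted p = 4.74e-07) at 30 μg/kg, and Cdkn1b (p27) had a value of 0.52 (adjusted p = 0.00125) at 30 μg/kg, under the fold threshold. Dlk2, the closest relative of Dlk1, did not pass the filter.

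Of the Notch receptors, Notch1 rose from 0.3 μg/kg (1.06, adjusted p = 0.0231) to 10 μg/kg (2.20, adjusted p = 7.11e-09) and stood at 1.90 (adjusted p = 2.23e-08) at 30 μg/kg. Notch3 rose by 1.71 (adjusted p = 1.05e-05) and Notch4 by 1.07 (adjusted p = 1.23e-05) at 30 μg/kg, and Notch2 fell by 0.91 (adjusted p = 8.89e-07). The target Hes1 rose by 1.08 (adjusted p = 0.00373) at 10 μg/kg and 0.88 (adjusted p = 0.00966) at 30 μg/kg, the former lost without replicate 5 of that dose (adjusted p = 0.0519). The ligand Jag1 was higher at 3 μg/kg (0.83, adjusted p = 0.0103) and did not meet the call rule at 30 μg/kg (0.33, adjusted p = 0.201).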

How the data were processed

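Liver RNA of 40 mice was sequenced by the authors as 150-base read pairs, quality-checked with FastQC 0.11.7, trimmed with Trimmomatic 0.39 and aligned with STAR 2.7.3a, per the submitters' processing notes, which name the builds GRCm39 and mm10 without saying which step used which. The annotation is not given in the sources used here. The authors deposited read counts per gene as STAR writes them, and the unstranded column was used because 50.0% to 50.3% of assigned reads fell on the first strand. Reads in genes were 71.3% to 80.8% of each library, those shared by overlapping genes (4.84% to 5.90%) or aligned to several places (5.24% to 7.43%) were counted for no gene, and the rows that name no gene held 19.2% to 28.7%. A series-wide table of normalized values was not used here. GENCODE M21 gave symbols for 52083 of 55359 identifiers.

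Counts were fitted with edgeR 4.0.16 in R 4.3.3 (quasi-likelihood test, TMM scaling, filterByExpr with a minimum of 10 counts and a total of 15, 1 mean per dose over all 40 libraries, Benjamini-Hochberg adjustment over 15373 genes), and a gene was called at an adjusted p under 0.05 and a fold of at least 1.5. The study's empirical Bayes posterior was not recomputed, and edgeR took its place. The test was checked on simulated counts with a single dispersion for all genes and a small share of genes changed. The simulation held no broad change like that at 30 μg/kg, so it does not show how the test behaves there. SEs are the log2 fold change over the root of its F statistic, and log2 CPM used a prior count of 2. Fold changes of the 6 genes carry no p, since the genes and all lists were chosen with earlier results of these data known. From the lists of imprinted, fetal liver, IGF and regulator genes the text names the 3 called genes with the largest rise and the 3 with the largest fall at 30 μg/kg where the mean count in the higher group was at least 50. It also names genes called at 10 μg/kg or below, not each at every dose where it was called. All genes of the short families are named, and for likeness the 3 genes with the highest Pearson r among those with a mean of at least 10 counts. The library that stands apart, the muscle genes and the count ratios were examined after the data were seen. Replicates were numbered in accession order. No pair of the 80 replicate pairs agreed within sampling noise (lowest chi-square per degree of freedom 11.1). Alternatives were DESeq2 1.42.0, other scalings, filters and samples, run as a covariate, the strand columns summed, and each replicate left out. Promoter and microRNA sequences came from RefSeq. Tables were made with Python 3.11.15, pandas 2.3.3, numpy 2.4.6 and scipy 1.17.1, and plots with matplotlib 3.10.9.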

Additional observations from a re-analysis of the deposited data

Results flagged for a closer look

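Of the 33 groups of 5 mice in which a gene was detected, 3 held a mouse far from the others by Dixon's test, which chance finds in about 1 of 20 groups of normally distributed values. That rate does not apply to counts near 0, as in the Dlk1 groups, where a single mouse with a few counts is enough. In vehicle, H19 stood at 10.1 CPM (163 counts) in replicate 2 and at 0 to 0.0716 CPM in the other 4 mice, and the skeletal muscle transcripts of the same library are given with the H19 results. At 0.03 μg/kg, Dlk1 stood at 0.571 CPM (9 counts) in replicate 2 and at 0 in the others. At 3 μg/kg, Dlk1 stood at 0.302 CPM (5 counts) in replicate 1 and at 0 to 0.0597 CPM in the others. The cause of these values was not tested.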

How the results depend on the processing

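Of the counts of called genes under alternative settings, 122 stayed within 1.5 times the reported count and 4 did not. These were 4272 genes called at 30 μg/kg (6476 as reported) and 13 other fetal liver genes (20 as reported) with a mean of at least 50 counts required, where fewer genes were tested, 1907 genes called at 10 μg/kg (3347 as reported) in run 1 alone, where fewer mice were fitted, and 15 other imprinted genes, all higher (9 as reported), with library size alone. That scaling moved the median of all genes from 0.03 to 0.52 and split the calls at 30 μg/kg into 6402 higher and 1559 lower, against 3567 and 2909.

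The sign of H19 at 10 μg/kg (-2.98 as reported) turned to 2.77 without vehicle replicate 2 and to 2.59 in run 2 alone, and its value at 30 μg/kg (0.54) moved to 6.30 and 5.94. The sign of Cdkn1c at 30 μg/kg (-0.19) turned to 0.32 with library size alone, 0.19 in run 1 alone and 0.10 without vehicle replicate 5, all within 1 SE of 0. Dlk1 in run 2 alone was at 8.68 at 10 μg/kg and 9.14 at 30 μg/kg, against vehicle mice with 0 counts. Leaving out each replicate in turn gave 6195 to 6961 genes called at 30 μg/kg and 3098 to 3354 at 10 μg/kg, 8 to 11 other imprinted genes, 19 to 21 other fetal liver genes, 14 to 17 regulators and 10 IGF genes. It gave log2 fold changes at 30 μg/kg of 4.40 to 5.10 for Afp, 1.18 to 1.57 for Gpc3, 5.98 to 7.69 for Dlk1, -0.33 to 0.10 for Cdkn1c and 0.06 to 6.30 for H19, and at 10 μg/kg of -3.72 to 2.77 for H19 and 5.09 to 6.80 for Dlk1. Of 65 list genes called at 30 μg/kg, 40 were called in every setting and 59 without any single library, and of 27 at 10 μg/kg, 11 and 19. Only Slc22a3 among them changed sign, with the strand columns summed (-2.12 at 30 μg/kg and -0.98 at 10 μg/kg). With a floor of 3 counts, changes of H19, Dlk1 and Igf2 below 0.114 to 0.216 CPM were not detectable. No paired analysis was possible because the replicate numbers follow accession order and pair no mice.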
